A study of Mus musculus with 2 samples.

Results

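The insulin-like growth factor (IGF) system was followed through the cells of the mouse uterus, as 10 genes chosen by their symbols: the ligands Igf1 and Igf2, the receptors Igf1r and Igf2r, and the binding proteins Igfbp2 to Igfbp7. All 10 were found among the 32285 genes of the count tables, each in 1 row. The tables came from 2 droplet single-cell libraries of whole uterus from C57BL/6J mice at 6 months of age, each made from 3 pooled mice after 5 h of collagenase digestion. The control-labelled library came from Prickle1 f/f mice, which carry the floxed alleles without a stated Cre, and the cKO-labelled library from Prickle1 f/f MiC mice. What MiC means and which cells it targets are not stated, and the genotype entry of both libraries is wild-type. Prickle1 encodes a planar cell polarity protein.

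Because the mice were pooled, each group is 1 library. No difference below has a replicate error or a test, and all intervals are 95% intervals that cover counting error only. Levels are counts of unique molecular identifiers (UMIs, 1 per captured transcript) summed over the cells of a class and scaled to 1000000 UMIs of that class (CPM). Transcripts were read at their 3-prime ends, so each gene is compared between cells and not with other genes. A gene with at least 10 CPM in either library was called higher or lower where its log2 ratio of cKO over control, after adding 5 CPM to each level, passed 1 or -1.

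IGF1 and IGF2 are secreted growth factors that act through IGF1R, a receptor tyrosine kinase, whereas IGF2R binds IGF2 and carries it to lysosomes along with proteins bearing mannose 6-phosphate. The IGF binding proteins hold the ligands outside the cell, extend their life and limit or direct their access to the receptor, and proteases such as PAPPA release the ligand by cutting some of them. In the uterus IGF1 is known as a stromal product under oestrogen control that acts on the epithelium.

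The 3490 cells of the control-labelled library had a median of 4953 UMIs each and the 3586 of the cKO-labelled library a median of 4903, out of 45035801 and 34261441 UMIs in all. The libraries shared 6 cell barcodes. Clustering without the IGF genes gave 21 clusters, numbered from 0, of which 18 were named by their markers and are called fibroblast-like, smooth muscle-like and so on. The cell makeup differed widely: epithelium-like cells numbered 1324 in the control-labelled library and 110 in the cKO-labelled library, fibroblast-like cells 853 and 1352, and smooth muscle-like cells 314 and 685. Prickle1 itself was not lower in the cKO-labelled library, at 2.56 CPM over all control cells and 9.03 CPM over all cKO cells, and at 14.8 and 24.2 CPM in smooth muscle-like cells. These 3-prime tags need not lie in the deleted part of the gene, so they do not check the labels.

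**Figure D1:**
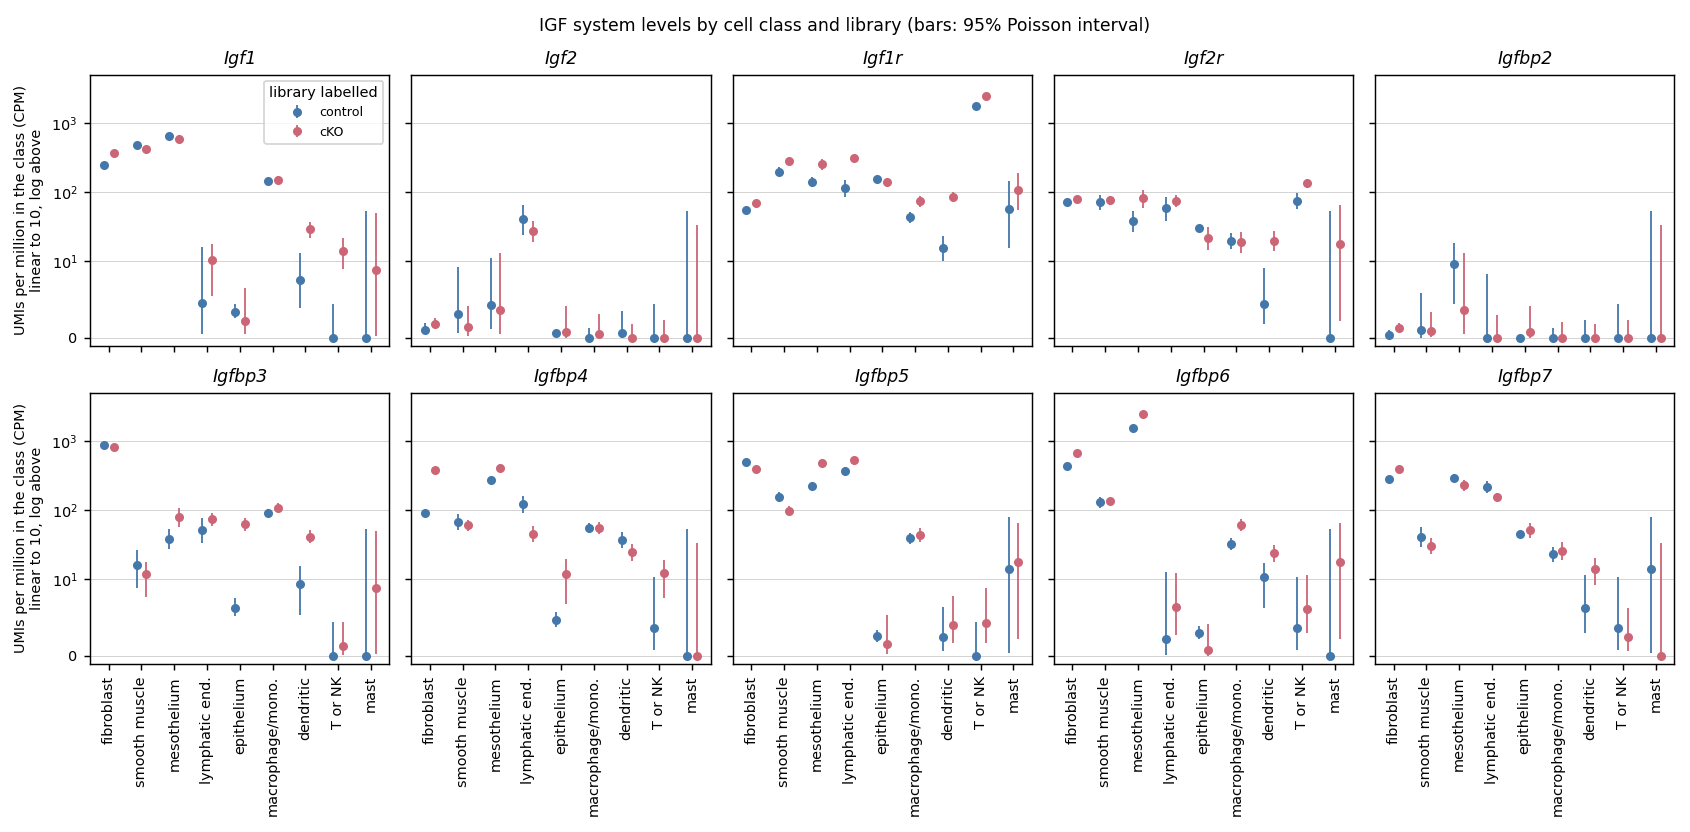
Level of each of the 10 genes in 9 named cell classes (horizontal axis) as UMIs per 1000000 in the class (vertical axis, linear to 10 and logarithmic above), with control in blue and cKO in red. Points are the value of 1 library and bars its 95% Poisson interval; Igf1r stands highest in T or NK cell-like cells, Igf2 in lymphatic endothelium-like cells and Igf1 and most binding proteins in stromal and mesothelial classes.

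Igf1 (chr10:87858265-87937042, plus strand, mm10) was a transcript of mesenchymal cells and macrophages. Among the classes its level was highest in mesothelium-like cells, with 645.5 CPM in the control-labelled library and 589 CPM in the cKO-labelled library. Smooth muscle-like cells followed with 479 and 415 CPM, then fibroblast-like cells with 246 and 371 CPM and macrophage or monocyte-like cells with 143 and 151 CPM. The interval of the mesothelial level did not overlap that of smooth muscle in either library. Among clusters of at least 20 cells, however, fibroblast-like clusters were the highest. These were cluster 15 in control, at 768 CPM with an interval that overlapped the mesothelial one, and cluster 20 in cKO, at 908 CPM. Epithelium-like cells, by contrast, held 3.42 and 2.23 CPM. T or NK cell-like cells serve here as the background of free RNA for the ligands and binding proteins. They held 0 Igf1 UMIs in the control-labelled library, which allows up to 4.44 CPM, and 14.1 CPM in the cKO-labelled library.

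Macrophages are a source of IGF1 in many tissues. In macrophage or monocyte-like cells 39.6% (34.1 to 45.2%) of the control cells and 39.5% (33.1 to 46.1%) of the cKO cells had an Igf1 UMI. T or NK cell-like cells had one in 0 of 193 control cells, which allows a share of up to 1.89%, and in 2.53% (1.27 to 4.48%) of the cKO cells. Their median depths were 4076 and 3498 UMIs, against 7836 and 5870 in the macrophages. With every cell thinned to 1000 UMIs, the macrophage shares were 13% and 12.7%.

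Igf2 (chr7:142650766-142666816, minus strand), the ligand best known from fetal and placental growth, was rarely detected. All cells together gave 47 Igf2 UMIs in the control-labelled library and 71 in the cKO-labelled library. The 25 and 97 lymphatic endothelium-like cells supplied 18 and 34 of them, which is 40.4 CPM (24.0 to 63.9) and 26.8 CPM (18.6 to 37.5). Every other named class was at or below 4.29 CPM in both libraries. Lymphatic endothelium-like cells held 0.716% and 2.71% of the cells and 38.3% and 47.9% of the Igf2 UMIs.

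Igf1r (chr7:67952827-68233668, plus strand), which encodes the signalling receptor, was detected in every named class, and its level was by far the highest in 1 cluster of lymphocytes. Cluster 7, led by the gamma delta T cell receptor gene Trdc and by Cxcr6 and Pdcd1, held 3169 CPM (3004 to 3342) of Igf1r in the control-labelled library and 3597 CPM (3485 to 3711) in the cKO-labelled library. Among clusters of at least 20 cells, the next highest held 288 CPM in control (smooth muscle-like cluster 14) and 368 CPM in cKO (unnamed cluster 19). The gap between the first and the second cluster was therefore 11-fold in control and 9.78-fold in cKO.

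An Igf1r UMI was found in 94 of 97 control cells of cluster 7 (96.9%, 91.2 to 99.4%) and in 282 of 289 cKO cells (97.6%, 95.1 to 99.0%). After thinning each cell to 1000 UMIs the shares were 88.7% and 89.97%. The transcript was thus found in nearly all cells of the cluster and not in a few. The same cells carried Trdc at 1410 and 1744 CPM, the T cell receptor subunit Cd3e at 550 and 679 CPM and the interleukin 23 receptor Il23r at 136 and 82.8 CPM. The cytokine gene Il17a was low, at 16.2 and 29.4 CPM in 4.12% and 5.88% of the cells.

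The other lymphocyte clusters did not share the high Igf1r level. Cluster 18, led by Il5 and Gata3, held 160 CPM in the control-labelled library and 85.1 CPM in the cKO-labelled library. Unnamed cluster 10, led by AW112010, Il2rb and the granzyme gene Gzma among others, held 56.6 and 146 CPM. In cluster 7 the insulin receptor Insr was at 25.4 and 51.5 CPM and the adaptor Irs2, which links both receptors to phosphoinositide 3-kinase, at 460 and 622 CPM. The adaptor Irs1 had 1 UMI and 7 UMIs there, or 2.31 and 6.44 CPM.

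**Figure D2:**
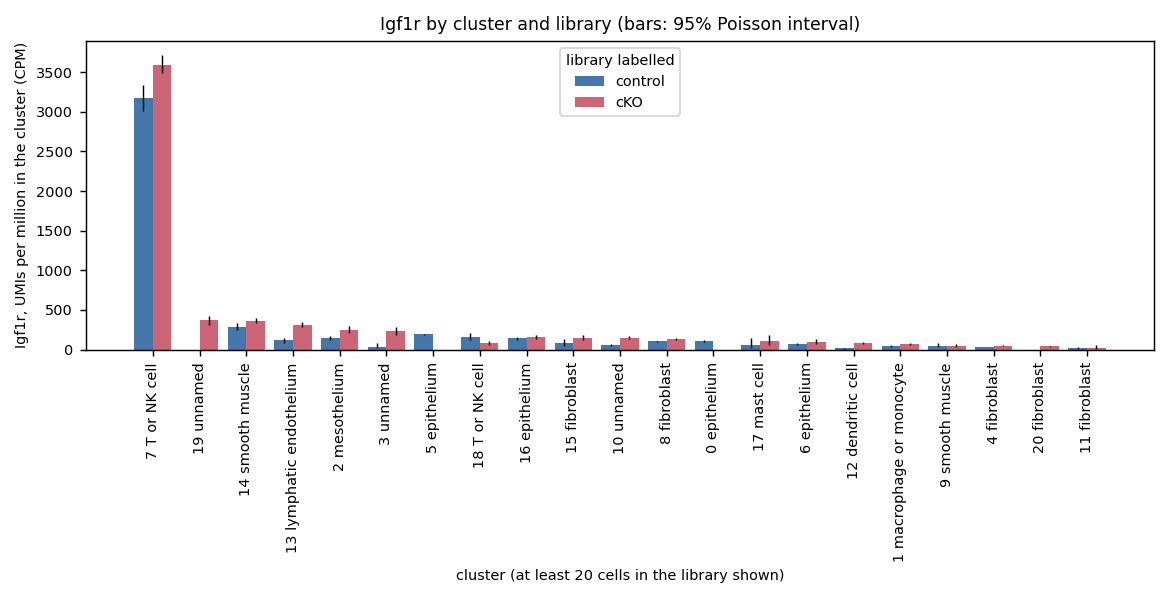
Igf1r UMIs per 1000000 (vertical axis, from 0) in each cluster with at least 20 cells in the library shown (horizontal axis, cluster number and name), with 95% Poisson intervals as bars on the columns. Cluster 7 reaches 3169 CPM in control (blue) and 3597 CPM in cKO (red), and every other column is at or below 368 CPM.

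Between the libraries, Igf1r in cluster 7 differed little, with a ratio of cKO over control of 1.13 (1.07 to 1.21). In cluster 18 the ratio was 0.53 (0.36 to 0.79). Because cluster 7 made up 97 of 193 control cells and 289 of 435 cKO cells of the T or NK cell-like class, the level of the class was 1726 CPM in control and 2431 CPM in cKO, a ratio of 1.41 (1.33 to 1.50). The unweighted mean of the log2 ratios within clusters 7 and 18 was -0.35, against 0.49 for the class. It weighs cluster 18, with 64 and 46 Igf1r UMIs, equally with cluster 7, with 1371 and 3910. The class held 5.53% of the control cells and 25.8% of all Igf1r UMIs, against 12.1% of the cKO cells and 55.2% of the Igf1r UMIs. Epithelium-like cells, in turn, held 53.0% of the Igf1r UMIs in control and, with 110 cells, 2.59% in cKO.

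Outside the lymphocytes, Igf1r was at 196 CPM in control and 281 CPM in cKO in smooth muscle-like cells and at 155 and 138 CPM in epithelium-like cells. Lymphatic endothelium-like cells had 115 and 311 CPM, mesothelium-like cells 139 and 250 CPM, fibroblast-like cells 54.5 and 69.4 CPM, and macrophage or monocyte-like cells 42.7 and 73.1 CPM. Of these, only the classes of at least 100 cells in both libraries are compared, and Igf1r was higher in the cKO-labelled library in each of them but the epithelium. The free RNA of empty droplets also held more Igf1r there, at 62.5 and 96.5 CPM.

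Igf2r (chr17:12682406-12769664, minus strand), the clearance receptor, was spread over the classes without one that stood apart. Its level was 72.0 CPM in control and 78.6 CPM in cKO in fibroblast-like cells, 70.7 and 75.8 CPM in smooth muscle-like cells, and 74.6 and 133 CPM in T or NK cell-like cells. Epithelium-like cells had 30.01 and 21.5 CPM and macrophage or monocyte-like cells 19.6 and 18.98 CPM. The highest class could not be told from its neighbour in either library, since the intervals of T or NK cell-like cells and of unnamed cluster 3 overlapped.

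The more abundant binding proteins were mostly transcripts of stromal and mesothelial cells. Igfbp3 (chr11:7206086-7213923, minus strand), the main carrier of IGFs in blood, lay mostly in fibroblast-like cells, which held 90.5% of its UMIs in the control-labelled library and 92.9% in the cKO-labelled library, with 24.4% and 37.7% of the cells. The class level was 883 CPM in control and 815 CPM in cKO. Unnamed cluster 19, deep cells that join fibroblast and T cell markers, was higher in both libraries, at 1579 and 1015 CPM in 15 and 25 cells. Among the fibroblast-like clusters, cluster 8 was the highest with 1697 and 2029 CPM, and cluster 4 had 557 and 642 CPM. Cluster 20 had 0 UMIs in its 16 control cells, which allows up to 13.3 CPM, and 83.4 CPM in its 228 cKO cells. The fibroblast-like cluster highest in Igfbp3 was thus the lowest in Igf1, which stood at 68.5 and 66.4 CPM in cluster 8 and at 1187 and 908 CPM in cluster 20.

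Igfbp5 (chr1:72857932-72874884, minus strand), a matrix-bound binding protein, was highest in fibroblast-like cluster 15 in both libraries, with 1287 CPM in control and 733 CPM in cKO. As a class, fibroblast-like cells held 492 and 397 CPM and lymphatic endothelium-like cells 364 and 528 CPM. Mesothelium-like cells had 221 and 478 CPM and smooth muscle-like cells 153 and 98.1 CPM. In the cKO-labelled library the lymphatic and mesothelial intervals overlapped.

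Igfbp6 (chr15:102144362-102149511, plus strand), which prefers IGF2 over IGF1, was highest in the mesothelium-like cells, with 1528 CPM (1450 to 1609) in the control-labelled library and 2430 CPM (2302 to 2563) in the cKO-labelled library. Fibroblast-like cells came second with 431 and 675 CPM, and neither interval overlapped that of the mesothelium. Smooth muscle-like cells held 129 and 135 CPM. The mesothelium-like cluster was small, with 81 and 29 cells, and Dcn, a fibroblast marker, was among its leading genes. The 6 fibroblast markers summed to 9515 CPM in control and 12298 CPM in cKO there, beside 10706 and 9937 CPM in fibroblast-like cells. The 5 mesothelium markers summed to 1488 and 1644 CPM in the mesothelium-like cluster. Its levels are therefore described and not compared between the libraries.

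Igfbp7 (chr5:77349240-77408041, minus strand), a low-affinity relative found in vessel walls and basement membranes, was at 280 CPM in control and 396 CPM in cKO in fibroblast-like cells, 293 and 228 CPM in mesothelium-like cells and 218 and 155 CPM in lymphatic endothelium-like cells. It was also the one binding protein that epithelium-like cells held above 40 CPM in both libraries, at 44.9 and 50.5 CPM. No cluster was named vascular endothelium or pericytes, so those known sources are not described apart. The lymphatic endothelium-like cluster also met the marker rule for vascular endothelium. Its 5 vascular markers summed to 2036.5 CPM in control and 1881 CPM in cKO, and its 6 lymphatic markers to 11772 and 6287 CPM. Igfbp2 (chr1:72824503-72852474, plus strand) was scarcely detected, with 14 UMIs in all control cells and 26 in all cKO cells. Of these, 9 of the control UMIs lay in mesothelium-like cells and 21 of the cKO UMIs in fibroblast-like cells.

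Igfbp4 (chr11:99041244-99054392, plus strand), an inhibitory binding protein that PAPPA cuts, had the largest difference between the libraries among the members in fibroblast-like cells. Its level there was 89.2 CPM (83.4 to 95.4) in the control-labelled library and 383 CPM (373 to 393) in the cKO-labelled library. The ratio was 4.29 (3.99 to 4.61) and the log2 ratio 2.04, higher than that of 99.7% of all genes compared in the class. In the empty droplets Igfbp4 was likewise higher, at 34.1 and 135 CPM.

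The promoters of Igf1, Igfbp4 and Igfbp6 are shown because these 3 members varied together most closely over the 21 clusters, both libraries summed. Pearson's r of their log2 levels was 0.93 for Igf1 and Igfbp6, 0.89 for Igf1 and Igfbp4 and 0.87 for Igfbp4 and Igfbp6. These are descriptions, since clusters share libraries and differ in depth. Each sequence is the RefSeq window of 250 bases before to 50 after a RefSeq transcript start on mm10 (GRCm38.p6), plus strand of the genome, at chr10:87860861-87861160, chr11:99040994-99041293 and chr15:102143936-102144235. The Igfbp4 start is that of the GENCODE gene position given above, whereas the Igf1 start lies 2846 bases downstream of the GENCODE gene start and the Igfbp6 start 176 bases upstream of it. Capitals mark the matches to the 4 motifs searched on both strands.
Igf1: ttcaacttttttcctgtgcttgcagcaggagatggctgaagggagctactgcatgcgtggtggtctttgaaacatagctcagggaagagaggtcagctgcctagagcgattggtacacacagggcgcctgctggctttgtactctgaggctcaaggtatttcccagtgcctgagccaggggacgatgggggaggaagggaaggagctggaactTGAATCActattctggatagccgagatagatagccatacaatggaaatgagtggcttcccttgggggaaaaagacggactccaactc
Igfbp4: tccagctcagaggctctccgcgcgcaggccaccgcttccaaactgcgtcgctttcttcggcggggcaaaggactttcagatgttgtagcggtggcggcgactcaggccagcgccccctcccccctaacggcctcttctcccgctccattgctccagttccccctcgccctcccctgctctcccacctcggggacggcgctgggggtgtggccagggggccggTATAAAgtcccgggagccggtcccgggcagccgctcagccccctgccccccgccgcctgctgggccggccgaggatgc
Igfbp6: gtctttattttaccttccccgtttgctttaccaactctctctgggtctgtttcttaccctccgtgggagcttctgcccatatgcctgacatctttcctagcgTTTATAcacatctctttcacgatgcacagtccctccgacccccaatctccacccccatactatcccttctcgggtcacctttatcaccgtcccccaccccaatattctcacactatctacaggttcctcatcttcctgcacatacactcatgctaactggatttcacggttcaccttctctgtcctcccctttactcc
The Igf1 window held 1 match, TGAATCA, 37 bases before the RefSeq start. It matched TGANTCA, searched as a loose form of the AP-1 motif that allows any base in the middle. The Igfbp4 window held 1 match to the TATA box motif TATAAA, 28 bases before the RefSeq start, and the Igfbp6 window 1 on the other strand, 148 bases before it. None of the 3 held the GC box GGGCGG or the palindromic oestrogen response element. Of 32851 mouse promoter windows of the same length, 7.81% held TGANTCA, 13.6% TATAAA, 35.7% GGGCGG and 0.0700% the oestrogen response element. No motif was thus found in all 3 windows.

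In fibroblast-like cells 8 of the 10 members reached 10 CPM. Igfbp4 was called higher in the cKO-labelled library and no member lower, against 1.67% of 8143 genes called higher and 0.872% called lower. The members' median log2 ratio was 0.41 and that of all genes 0.10. The ligand Igf1 had a class ratio of 1.51 (1.44 to 1.58), and Igfbp6 and Igfbp7 ratios of 1.56 (1.51 to 1.62) and 1.42 (1.35 to 1.48). With every cell thinned to 1000 UMIs, the log2 ratio was 0.02 for Igf1 and -0.13 for Igfbp7. Igfbp5 was lower, with a ratio of 0.81 (0.78 to 0.84), and Igfbp3 had a ratio of 0.92 (0.90 to 0.95).

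**Figure D3:**
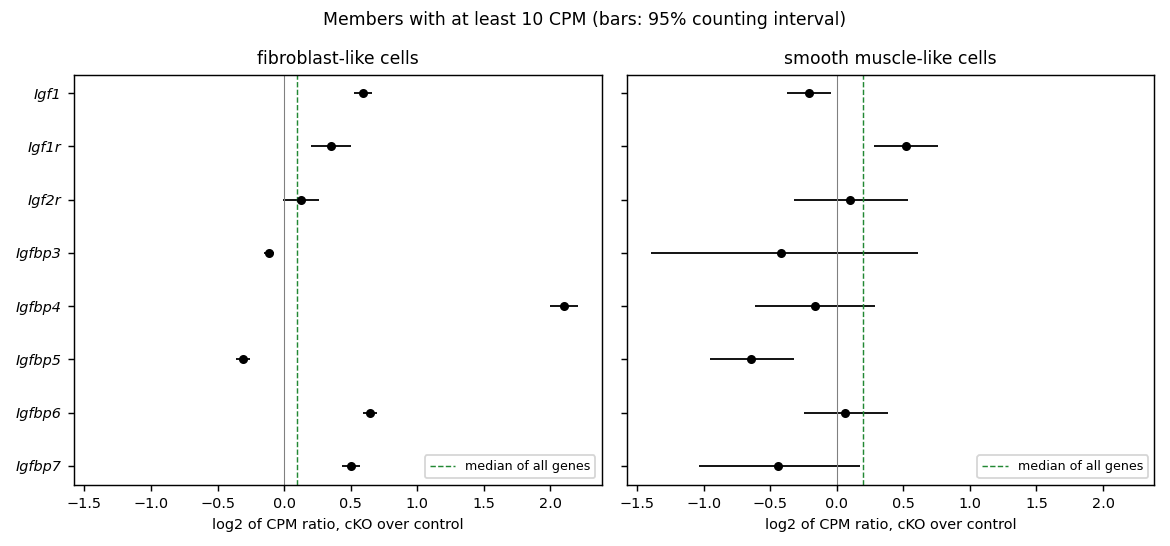
The log2 ratio of CPM, cKO over control (horizontal axis), for the 8 members with at least 10 CPM (vertical axis) in fibroblast-like (left) and smooth muscle-like (right) cells, with 95% counting intervals and the median of all genes as a dashed line. Igfbp4 stands apart in fibroblast-like cells, and in smooth muscle-like cells Igf1r lies above 0 and Igf1 and Igfbp5 below it.

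These class ratios joined clusters that differed in size between the libraries. Cluster 20, led by Col1a1, Dio2, Aldh1a2 and Crispld2 and rich in Scube1 and A2m in the cKO-labelled library (322 and 331 CPM), had 16 control cells and 228 cKO cells. It supplied 71.5% of the Igfbp4 UMIs and 68.0% of the Igf1 UMIs of the cKO fibroblast-like cells with 16.9% of those cells. In control it held 1.88% of the cells, 19.7% of the Igfbp4 UMIs and 13.9% of the Igf1 UMIs. With 6.56% of its cells from the control-labelled library, it may be that library and not a type.

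Without cluster 20, the log2 ratio of Igfbp4 in the class was 0.99, just under the limit for a call, that of Igf1 was -0.40 and that of Igfbp3 0.27. Igfbp4 was nonetheless higher in the cKO-labelled library within single clusters. In cluster 15 its level was 292 CPM in control and 1289 CPM in cKO, in cluster 11 74.5 and 491 CPM, and in cluster 8 88.7 and 127 CPM. In cluster 4, the largest, it was 57.0 and 64.4 CPM, a ratio of 1.13 whose interval (0.98 to 1.31) included 1. The unweighted mean of the log2 ratios within the clusters of at least 20 cells a library was 1.35. It gives the smaller clusters 11 and 15 the same weight as clusters 4 and 8.

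Clusters 11 and 15, where the within-cluster ratios of Igfbp4 were 6.59 (4.51 to 9.79) and 4.41 (3.40 to 5.81), also differed in other ways. The summed level of the 6 fibroblast markers was 11592 CPM in control and 5870 CPM in cKO in cluster 11, and 26207 and 9442 CPM in cluster 15. A2m was at 3.73 and 230 CPM in cluster 11 and at 4.71 and 360 CPM in cluster 15. Both clusters were shallow, at 0.350 and 0.518 of the median depth of their libraries. The part of these differences in the Igfbp4 ratio was not tested.

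Igf1 went the other way within clusters. It was lower in the cKO-labelled library in cluster 4 (242 and 184 CPM, ratio 0.76, 0.70 to 0.82), cluster 11 (611 and 241 CPM, ratio 0.39, 0.28 to 0.54) and cluster 15 (768 and 595 CPM, ratio 0.77, 0.64 to 0.94). In cluster 8 the ratio was 0.97 (0.81 to 1.17). The higher Igf1 level of the cKO class as a whole thus came with the larger number of cells in cluster 20, where Igf1 was at 908 CPM in cKO and 1187 CPM in control. The unweighted mean of the log2 ratios within clusters was -0.53.

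Igfbp6 was higher in the cKO-labelled library in the large clusters 4 (404 and 600 CPM, ratio 1.49, 1.41 to 1.57) and 8 (420 and 525 CPM, ratio 1.25, 1.16 to 1.34), and the intervals of clusters 11 and 15 included 1. Igfbp5 was lower in clusters 8 (538 and 277 CPM, ratio 0.52, 0.48 to 0.56) and 15 (ratio 0.57, 0.49 to 0.67) but higher in cluster 4 (480 and 531 CPM, ratio 1.11, 1.05 to 1.16) and cluster 11 (276 and 420 CPM, ratio 1.52, 1.15 to 2.01). The class ratio of Igfbp5 therefore covered opposite values. So did that of Igfbp7, with ratios of 1.15 (1.08 to 1.23) in cluster 4 and 2.06 (1.62 to 2.65) in cluster 15. In cluster 8 the Igfbp7 ratio was 0.83 (0.75 to 0.92), and in cluster 11 it was 0.98 (0.71 to 1.33). Cluster 20 held 7.29% of the Igfbp7 UMIs of the class in control and 45.8% in cKO. For Igfbp6 the shares of cluster 20 were 6.68% and 39.4%. The class log2 ratio of Igfbp6, 0.64, was 0.15 at its lowest over 14 alternatives. Igfbp3 was higher in clusters 4 and 8, with ratios of 1.15 (1.10 to 1.21) and 1.20 (1.15 to 1.24), and in cluster 11, with 3.09 (2.29 to 4.18), but lower in cluster 15, with 0.55 (0.43 to 0.70), while the class ratio, with cluster 20 included, was 0.92.

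**Figure D4:**
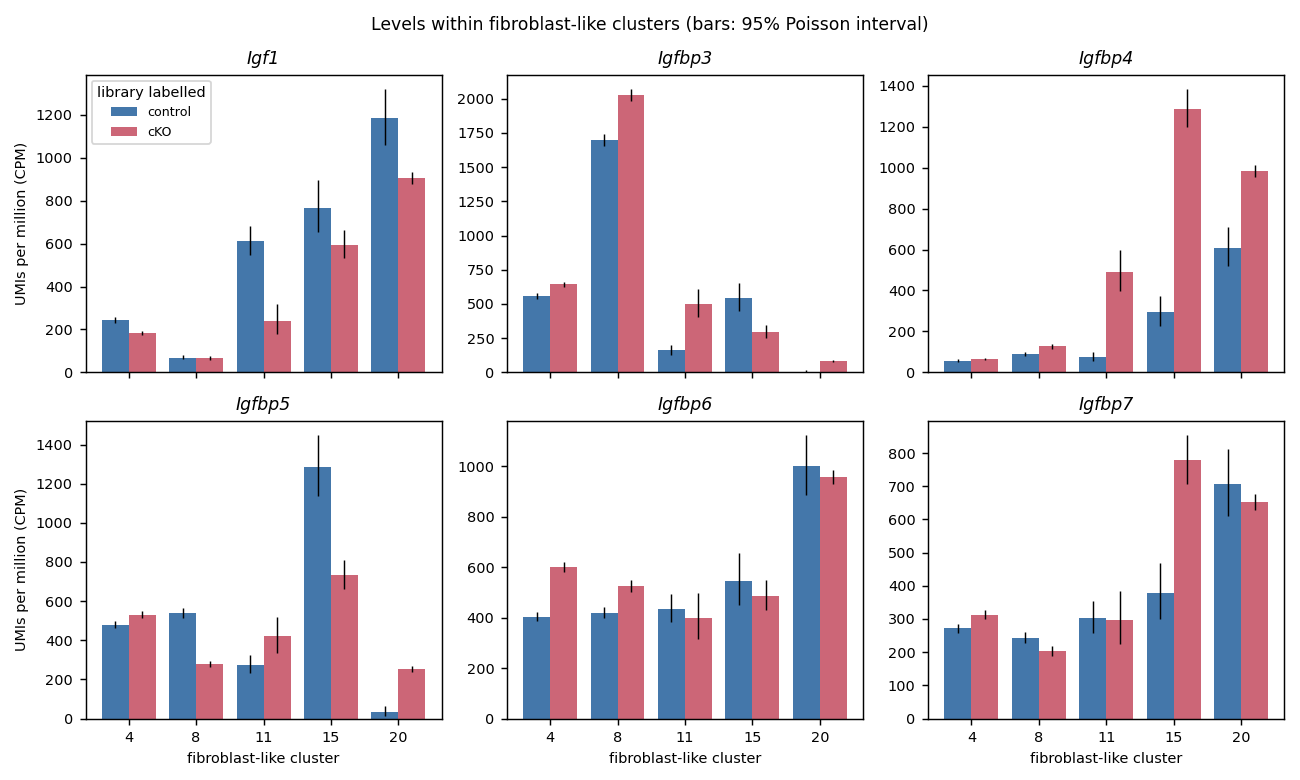
UMIs per 1000000 (vertical axes, from 0) of Igf1, Igfbp3, Igfbp4, Igfbp5, Igfbp6 and Igfbp7 in the 5 fibroblast-like clusters (horizontal axis), with control in blue, cKO in red and 95% Poisson intervals as bars. Igf1 is lower in cKO in clusters 4, 11 and 15, Igfbp4 is higher in cKO in clusters 8, 11, 15 and 20, and Igfbp3 peaks in cluster 8, where Igf1 is lowest.

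Smooth muscle-like cells, the myometrial class, made Igf1 and carried its receptor. Igf1 was at 479 CPM (436 to 525) in the control-labelled library and 415 CPM (388 to 443) in the cKO-labelled library, a ratio of 0.87 (0.77 to 0.97). Its 2 clusters started level in control, at 479 CPM each, and differed in cKO, at 295 CPM in cluster 9 (ratio 0.62, 0.49 to 0.77) and 456 CPM in cluster 14 (ratio 0.95, 0.83 to 1.10). Igf1r was higher, with 196 and 281 CPM and a ratio of 1.43 (1.21 to 1.70). Within clusters the ratio was 0.87 (0.45 to 1.71) in cluster 9 and 1.26 (1.06 to 1.50) in cluster 14, which held 570 of the 593 cKO UMIs.

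Igfbp5 in smooth muscle-like cells was at 153 CPM (129 to 180) in control and 98.1 CPM (85.2 to 112) in cKO, a ratio of 0.64 (0.52 to 0.80). It was lower in both clusters, with ratios of 0.55 (0.35 to 0.86) and 0.64 (0.49 to 0.82). Igfbp4 instead had opposite ratios, with 137 and 84.0 CPM in cluster 9 and 24.0 and 52.1 CPM in cluster 14, and a class ratio of 0.89 (0.65 to 1.22). None of the 8 members at 10 CPM passed the limit for a call in this class, where 3.61% of 8677 genes were called higher and 1.88% lower. The members' median log2 ratio was -0.18 and that of all genes 0.20.

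Several other measures of the smooth muscle-like class also differed between the libraries. The ribosomal protein share of UMIs was 12.8% in control and 8.19% in cKO. The 18 dissociation response genes summed to 19608 and 13380 CPM, with 4606 and 4480 CPM in cluster 9 and 29007 and 16407 CPM in cluster 14. The 7 smooth muscle markers summed to 7650 and 5087 CPM in the class. Within clusters they went opposite ways, with 15139 and 9965 CPM in cluster 9 and 2958 and 3427 CPM in cluster 14. Cluster 9 was shallow, at 0.284 of the median depth of its libraries. The part of these measures in the ratios was not tested.

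Of 34 other genes of the pathway, 22 reached 10 CPM in smooth muscle-like cells. In the cKO-labelled library 2 were called higher and 0 lower, beside 3.61% and 1.88% of all genes in the class. Irs1, the docking protein of the IGF1 and insulin receptors, was at 62.2 and 160 CPM, with a ratio of 2.57 (1.95 to 3.45). Stc1, stanniocalcin 1, an inhibitor of PAPPA, had 2 control UMIs and 35 cKO UMIs (2.11 and 16.6 CPM), a ratio of 7.86 with an interval of 2.02 to 67.4, and all 35 lay in cluster 14. In fibroblast-like cells 24 of the 34 reached 10 CPM and none was called in either direction, with a median log2 ratio of 0.10. Of all genes in that class, 1.67% were called higher and 0.872% lower. Pappa, the protease of IGFBP4 and IGFBP5, was at 159 and 142 CPM there.

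In epithelium-like cells, which hold the receptor but little ligand, 5 members reached 10 CPM. Igfbp3 was called higher and none lower, beside 13.5% of 8681 genes called higher and 7.26% lower. It had 119 UMIs in control (6.26 CPM, 5.19 to 7.50) and 84 in cKO (62.3 CPM, 49.7 to 77.2), a ratio of 9.95 (7.43 to 13.3) and a log2 ratio of 2.58, higher than that of 99.4% of all genes compared.

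Most control epithelium-like cells lay in clusters 0 and 5 and most cKO cells in clusters 6 and 16. The Igfbp3 difference was present within the latter, with 4.78 and 70.1 CPM in cluster 6 (ratio 14.6, 7.30 to 30.9) and 5.74 and 60.0 CPM in cluster 16 (ratio 10.5, 5.64 to 20.9). An Igfbp3 UMI was found in 3.40% (2.49 to 4.52%) of the control cells and 21.8% (14.5 to 30.7%) of the cKO cells of the class, at median depths of 4358 and 4066 UMIs. Among T or NK cell-like cells it was found in 0 of 193 control cells (up to 1.89%) and 0.460% of cKO cells, at 4076 and 3498 UMIs. Thinned to 1000 UMIs a cell, the epithelial shares were 0.227% and 3.64%. The top 5% of the cKO cells by Igfbp3 held 70.2% of its UMIs, so the level rests on few cells.

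Markers of other cells were low in this class but not equal between the libraries. The 6 fibroblast markers summed to 37.7 CPM in control and 16.3 CPM in cKO. The 7 smooth muscle markers summed to 62.0 and 232 CPM. In the empty droplets Igfbp3 was at 93.5 and 183 CPM. With free RNA subtracted at 10% of the class's UMIs, the log2 ratio was 3.42. That subtraction exceeded the control level of 6.26 CPM and left no Igfbp3 in control. The 3.42 therefore rests on the 5 CPM added and does not measure a larger difference. The part of other cells' RNA in the Igfbp3 difference was not tested.

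Epithelial Igf1r, at 155 CPM (150 to 161) in control and 138 CPM (119 to 159) in cKO, had a ratio of 0.89 with an interval of 0.76 to 1.03 that included 1. The log2 ratio, -0.16, turned to 0.43 without clusters drawn over 90% from 1 library and to 0.29 as the mean within clusters. Within clusters 6 and 16 the intervals also included 1. Of the other pathway genes, 19 reached 10 CPM in epithelium-like cells, with 1 called higher and 2 lower. Among all 8681 genes compared in the class, 13.5% were called higher and 7.26% lower. The called pathway genes are named here after their values were seen, and their levels are for the class only. The docking protein gene Irs1 was at 7.53 CPM in control and 30.4 CPM in cKO, a ratio of 4.04 (2.78 to 5.75). Foxo1, a transcription factor that insulin and IGF signalling inhibits, was at 233 and 93.5 CPM, and Igf2bp2, which encodes an RNA-binding protein, at 253 and 111 CPM.

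In macrophage or monocyte-like cells 8 members reached 10 CPM and none was called, beside 1.54% of 7546 genes called higher and 2.56% lower. Igf1 had a ratio of 1.06 (0.90 to 1.24). Igfbp3 was at 91.1 and 108 CPM, but in only 5.70% and 5.26% of the cells, and the top 5% of cells by Igfbp3 held 99.2% and 100% of its UMIs. The fibroblast markers summed to 828 and 965 CPM in this class, where Igf1, by contrast, was spread over more than 39% of the cells.

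Dendritic cell-like cells had the largest share of members called: of 7 at 10 CPM, 4 were higher and 0 lower in the cKO-labelled library, beside 4.99% of 7630 genes called higher and 3.54% lower. Igf1r was at 15.7 and 85.2 CPM (25 and 172 UMIs), Igfbp3 at 9.41 and 41.1 CPM, Igf1 at 7.53 and 28.7 CPM, and Igf2r at 4.39 and 19.8 CPM. The UMIs lay in few cells: the top 5% of cells held 83.1% of the cKO Igf1r UMIs and 100% of the cKO Igf1 and Igfbp3 UMIs. Beside these values the 6 fibroblast markers summed to 146 and 264 CPM in the class and the 8 T or NK cell markers to 9.41 and 182 CPM. Without the cells of highest doublet score the log2 ratio of Igf1 was -0.06 and that of Igfbp3 0.16. The log2 ratio of Igf2r, 1.40, was 0.71 with 20 CPM added and 0.38 with cells thinned to 1000 UMIs, both under the limit for a call. The part of other cells' RNA in these calls was not tested further.

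In T or NK cell-like cells 4 members reached 10 CPM, and Igf1 and Igfbp4 were called higher, beside 2.51% of 8565 genes called higher and 1.63% lower. Igf1 had 0 UMIs in control and 23 in cKO, at least 3.92-fold higher when control is set to 3 UMIs, and Igfbp4 3 and 20 UMIs. With free RNA subtracted their log2 ratios were 0.27 and -0.06. Igf2r was at 74.6 and 133 CPM, a ratio of 1.78 (1.34 to 2.40).

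In unnamed cluster 10 only the receptors reached 10 CPM. Igf1r, at 56.6 CPM (49 UMIs) in control and 146 CPM (205 UMIs) in cKO, was called higher, beside 3.34% of 8390 genes called higher and 4.41% lower. Of its UMIs 98.0% and 89.8% lay in the top 5% of cells, and 6.25% and 10.6% of the cells had one. The log2 ratio, 1.29, was 0.84 without the cells of highest doublet score, which ends the call.

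Over the 21 clusters, the genes whose log2 levels were most like those of each member were named by Pearson's r. For Igf1 they were Hoxd11 (0.96), Cdh11 (0.94) and Hoxa10 (0.93), for Igfbp4 Cdh11 (0.94), Crispld2 (0.92) and Tceal8 (0.92), and for Igfbp6 Rarres2 (0.97), Bicc1 (0.95) and Medag (0.95). For Igfbp3 the closest was Pappa (0.96), the protease gene, followed by Ctsk (0.94) and Slit3 (0.94). For Igfbp5 they were Colec12 (0.99), Fkbp9 (0.96) and Ltbp4 (0.96), and for Igfbp7 Amotl1 (0.92), Lamb1 (0.92) and Rhou (0.91).

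The receptors had other neighbours. Igf1r was most like Kcnmb4 (0.83), Aqp3 (0.81) and Il23r (0.79), and Igf2r most like Rif1 (0.84), Ormdl3 (0.83) and Syne1 (0.81). Igf1r and Igf1 themselves had an r of -0.28, and smooth muscle-like cells were among the higher classes for both. Igf2 and Igfbp2 reached 50 CPM in no cluster and were not ranked.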

How the data were processed

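Droplet 3-prime libraries of whole uterus were sequenced as 1 pool of 3 mice per group, and groups were taken from the sample titles. The authors deposited unfiltered UMI counts per gene and barcode, not normalized, made with Cell Ranger. The submitters' processing notes name version 6.1.1 and mm10, while the file headers name version 4.

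Here, a barcode counted as a cell from 1000 UMIs and 500 genes upwards, with no more than 20% mitochondrial UMIs. The cells of both libraries entered 1 clustering with scanpy 1.11.5 (2000 variable genes without the IGF members and 34 pathway genes, 30 components, 15 neighbours, Leiden resolution 1). A cluster was named from at least 3 of its markers. Scrublet marked 4 of 7076 cells (0.0565%), so doublet calling did not work and doublets remain in the data. Summed counts were scaled to CPM. Classes of 100 or more cells in each library were compared by their log2 ratio after adding 5 CPM. Intervals are exact (Poisson for levels, Clopper-Pearson for shares, conditional binomial for ratios; scipy 1.17.1). UMIs within a cell are not independent of each other, so intervals and the floor of 3 UMIs cover counting error only. The scripts were tested on simulated data.

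Gene positions are those of GENCODE vM21. All 10 members had a RefSeq promoter entry. All members are named, and other pathway genes where they passed the fold in fibroblast-like or smooth muscle-like cells. For each member that reached 50 CPM in a cluster, the 3 genes of highest correlation are named, and genes that lead a cluster or mark its identity were named after their values were seen. The members and lists were chosen with earlier results of these data known. Alternatives covered scaling, the amount added, resolution, cell filters, depth, free RNA, doublets, cell mix and cell assignment. Means of log2 ratios within clusters gave each cluster the same weight.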

Additional observations from a re-analysis of the deposited data

Results flagged for a closer look

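For 3 members, ratios of cKO over control that pointed in opposite directions in different cell classes were flagged. Igf1r, Igf2r, Igfbp5 and Igfbp7 also had ratios of both signs. The log2 ratio of Igf1r, for example, was 2.12 in dendritic cell-like cells and -0.16 in epithelium-like cells. None of these differences was tested, since each group is 1 library. For Igf1, the log2 ratio was 1.94 in T or NK cell-like cells, where control had 0 UMIs, and -0.20 in smooth muscle-like cells, a gap of 2.14. With free RNA subtracted, the former was 0.27. For Igfbp3, it was 2.58 in epithelium-like cells and -0.11 in fibroblast-like cells, a gap of 2.69. The fibroblast value had the other sign under 3 of 14 alternatives, among them 0.27 without clusters drawn over 90% from 1 library, so this opposition depends on the setting. For Igfbp4, it was 2.04 in fibroblast-like cells and -0.52 in dendritic cell-like cells, a gap of 2.56.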

How the results depend on the processing

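Each group is 1 library, so mouse, preparation and genotype cannot be told apart, and low counts limit Igf2 and Igfbp2. No paired analysis was possible because each group has 1 library. Of 565 log2 ratios of members under an alternative, 513 had the sign of the reported one. Of those called, 99 of 118 were still past the fold. Igfbp4 in T or NK cell-like cells turned to -0.061 with free RNA subtracted, and Igf1 in dendritic cell-like cells to -0.057 without the highest Scrublet scores. In fibroblast-like cells the members' median log2 ratio was 0.17 with cells thinned to 1000 UMIs, 0.31 without clusters drawn over 90% from 1 library, 0.27 with no minimum CPM and 0.19 as the mean of ratios within clusters. The number of members called higher there was 0 without clusters drawn over 90% from 1 library, since cluster 20 leaves the class. For other settings the cause was not tested. Scaling by the median of ratios moved the median log2 ratio of all genes by more than 0.1 in 5 classes: -0.32 (epithelium), -0.21 (dendritic cells), -0.16 (smooth muscle), -0.11 (unnamed cluster 10) and -0.10 (macrophages or monocytes). The log2 ratio of Igfbp3 in epithelium-like cells ranged from 1.65 to 3.42 over 14 alternatives, and that of Igfbp4 in fibroblast-like cells from 0.99 to 2.09. The 3.42 came with free RNA subtracted, which left no Igfbp3 in control. The setting without clusters under 0.5 of the median depth was chosen after seeing the data.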

Other observations

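Summed over all cells, with no regard to cell class, all 10 members had higher levels in the cKO-labelled library, with ratios from 1.65 for Igf1r to 5.69 for Igfbp4. Igfbp4 was at 41.1 and 234 CPM, Igfbp6 at 158 and 439 CPM, Igf1 at 104 and 263 CPM and Igfbp7 at 108 and 240 CPM. Epithelium-like cells, low in these genes, made up 37.9% of the control cells and 3.07% of the cKO cells. The part of the cell mix in the summed levels was not tested. No share of all genes is given beside the count of members, so the count is not read as a result about these genes.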
